A study of Sus scrofa with 37 samples.

Results

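The samples with the density label Low were compared between the 2 tissues of the pig that were sequenced, isolated islets and whole pancreas. Every Low sample with a column of counts was taken, which gave 9 islet and 9 pancreas samples, 18 of the 37 samples in the study and of the 35 with counts. For Low pancreas, 50 mg of parenchyma was cut from the duodenal lobe when the organ was retrieved. Low islets were purified from the organ and floated freely in ME 199 medium for 7 days, in humidified air with no CO2 added. No other treatment is named for either group, and the sources used here do not give breed, age, sex or how density was scored. The tissues therefore also differ in isolation and culture, and tissue and culture cannot be told apart. The other samples with counts are 8 High islet and 8 High pancreas samples, handled like the Low ones, and the islets of 1 animal without a density label, which were not used.

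The label belongs to a sample and not to an animal. In 6 animals both tissues were labelled Low. For 3 Low pancreas samples (replicates 1, 2 and 9) the islets of the same animal carry the label High, and for 2 Low islet samples the pancreas does. Another Low islet sample has no pancreas sample.

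The pancreas holds an exocrine part, where enzymes for digestion are made by acinar cells and leave through ducts whose cells add bicarbonate-rich fluid, and an endocrine part, the islets. Beta cells of an islet secrete insulin, alpha cells glucagon, delta cells somatostatin and PP cells pancreatic polypeptide, from granules filled with granins and prohormone-cutting enzymes. Endocrine cells are a small minority of the organ, so whole pancreas is read mainly as acinar tissue.

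Low islet libraries held 3480726 to 5186343 gene counts. Low pancreas libraries fell into 7 with 265000 to 536014 counts (replicates 1 and 3 to 8, called shallow here) and 2 with 2234639 and 1884982 (replicates 2 and 9, called deep), while High pancreas held 1855075 to 3922006. The 2 deep libraries both come from animals whose islets are labelled High. A floor of 3 counts was set, worth 0.578 to 0.862 CPM (counts per 1000000 counts of the library) in Low islets, 1.34 and 1.59 CPM in deep and 5.60 to 11.3 CPM in shallow pancreas. The floor is a guide for reading levels and did not filter genes in the main test. CPM under it are still given below. The lowest pancreas values of CHGB and PAX6, for example, are each 1 count in a shallow library. The 10 top genes took 53.3% to 71.7% of the counts in shallow libraries, 29.3% and 37.6% in deep ones and 27.3% to 33.0% in Low islets. Much of that came from genes without a symbol. ENSSSCG00000032395 took a median of 12.7% of counts in shallow pancreas, 2.11% in deep pancreas and 0.385% in islets, and ENSSSCG00000038753 took 5.4%, 0.275% and 0.0268%. Because the shallow libraries stand apart, list counts and the genes that lead each group are also given without them. Their part in the results was otherwise not tested.

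Counts of endocrine genes made up 8.99% ± 0.563 (SD, n = 9) of a Low islet library and 0.297% ± 0.584 (SD, n = 9) of a Low pancreas library. The share is the sum over 66 genes of the hormone, granin, beta, alpha and delta cell lists. The difference of 8.70 percentage points had p = 4.114e-05 in an exact two-sided permutation test, and the groups did not overlap. That is the smallest p that splits of 18 libraries into 9 and 9 can give, and the test ignores that 6 animals gave both tissues. Within those 6 animals, all with shallow pancreas libraries, the paired difference was 8.81 points. Its p was 0.03125 in the paired permutation test. Shallow pancreas lay between 0.0636% and 0.132%, deep replicate 2 was at 0.158% and deep replicate 9 at 1.85%, above the 0.135% to 0.429% of High pancreas.

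Acinar genes (30 genes of the enzyme and secretory helper lists) gave 0.0115% ± 0.0101 (SD, n = 9) of the counts of Low islets and 4.50% ± 4.87 (SD, n = 9) of Low pancreas. The difference of -4.49 points again had p = 4.114e-05 (exact two-sided permutation test of unpaired libraries). Within the 6 animals with both tissues it was -2.15 points (p = 0.03125, paired permutation test). The pancreas mean hides a split, since the shallow libraries lay at 1.44% to 3.72% and the deep ones at 11.8% and 14.1%. High pancreas lay at 20.1% to 30.2%, above every Low pancreas library. Leaving out the 7 genes that exceed 5% of any Low library raised the shallow range to 3.51% to 7.03%, still under the 15.0% and 19.1% of the deep libraries and the 24.2% to 36.1% of High pancreas. In bulk tissue, fewer cells of a type and less RNA per cell cannot be told apart.

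**Figure D1:**
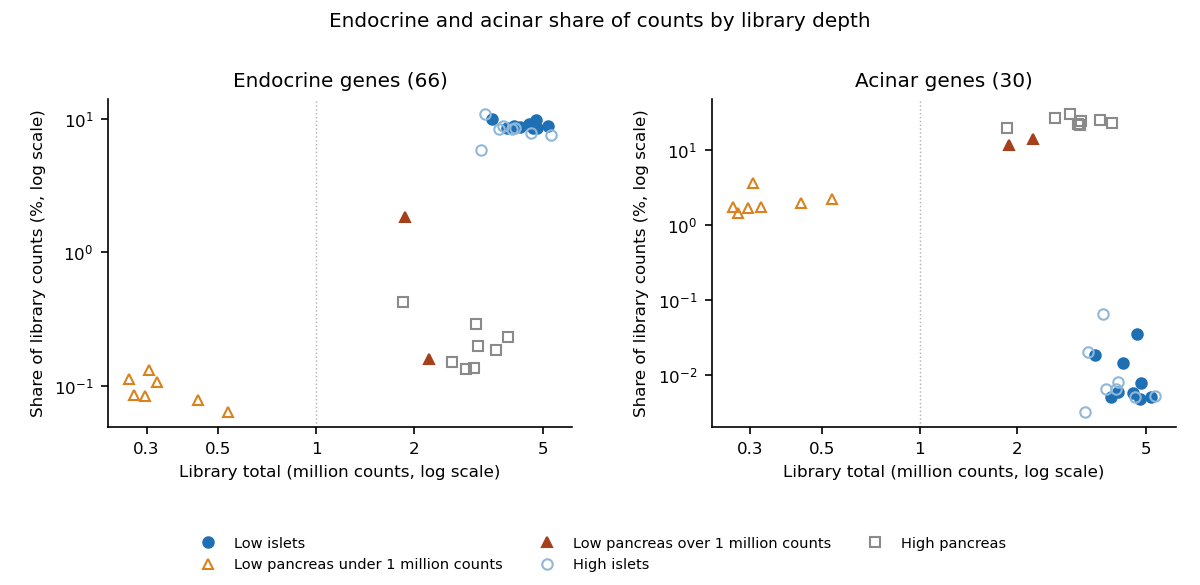
Share of library counts from 66 endocrine genes (left) and 30 acinar genes (right), in percent on a log scale, against the library total, in units of 1000000 counts on a log scale, 1 point per library. Low islets form 1 cluster in each panel, whereas shallow Low pancreas lies apart from deep Low pancreas in depth and acinar share, and replicate 9 is the pancreas point with 1.85% endocrine counts.

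The markers set out for each cell type were used to check the labels. All 4 pan-endocrine markers (CHGA, CHGB, PCSK2, SCG3) and all 4 beta cell markers (INS, SLC30A8, NKX6-1, G6PC2) were higher in every Low islet library than in any Low pancreas library, and all 6 acinar markers (CPA1, CPB1, PNLIP, CEL, CELA2A, RBPJL) were higher in every pancreas library. The alpha cell markers were divided. GCG was higher in every islet library, but IRX2 did not pass the test (adjusted p = 0.0877) and LOXL4, too low to be tested, was lower in every islet library.

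Of 12035 genes tested, 7376 (61.3%) differed between Low islets and Low pancreas at an adjusted p of 0.05. In islets 3662 (30.4%) were higher and 3714 (30.9%) lower. A difference of more than 2-fold was called for 3144 genes (26.1%), 1224 higher (10.2%) and 1920 lower (16%). CPM of the 2 groups did not overlap for 3278 genes (27.2%). Over all genes the log2 fold change had a median of 0.02. Upper-quartile scaling moved that median to -0.28 and the split to 2756 higher and 4587 lower, so the sign of a small difference depends on the scaling. Without the shallow libraries 7081 of 14368 genes (49.3%) passed, 3349 higher (23.3%) and 3732 lower (26%). Of 4771 genes called both times, 4750 kept their direction and 21 had the opposite one. With all 18 libraries the filter asks for a minimum level in 9 of them. A gene present in 1 tissue thus passed only if it reached that level in all 9 libraries of that tissue. Without the shallow libraries the filter asks for a minimum level in only 2 libraries, the size of the smaller group, so the genes tested differ between the 2 fits. Genes high in 1 tissue could pass through that tissue alone, so list counts describe only the genes tested.

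Hormone genes were far higher in Low islets. Insulin (INS) reached 29478.5 to 58387 CPM in Low islets (median 36674), 67.5 to 278 CPM in shallow pancreas, and 297 and 7803 CPM in the deep replicates 2 and 9. No pancreas library reached the islet range, and replicate 9 stood far above the other 8. The fit gave a log2 difference of 5.13 (SE 0.847, adjusted p = 1.11e-05). It was 7.33 without replicate 9, 3.26 without the shallow libraries (adjusted p = 0.00771) and 7.13 in the 6 animals with both tissues labelled Low, blocked by animal.

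Glucagon (GCG) lay between 4426 and 17314 CPM in Low islets, 23.2 and 64.1 CPM in shallow pancreas, and at 217 and 1925 CPM in the deep libraries. Its log2 fold change was 5.03 (SE 0.764, adjusted p = 3.54e-06), 6.71 without replicate 9 and 3.24 without the shallow libraries. Both major islet hormones were thus lowest in the same 7 pancreas libraries and highest among pancreas in replicate 9. Somatostatin (SST) ranged from 191 to 1476 CPM in islets (median 923) and from 3.37 to 90.7 CPM in pancreas (median 13.9), and rose by 4.43 on the log2 scale (SE 0.471, adjusted p = 1.34e-08), or by 3.54 without the shallow libraries. Pancreatic polypeptide (PPY) ranged from 42.5 to 531 CPM in islets and from 0 to 22.6 CPM in pancreas. Its log2 fold change of 3.39 (adjusted p = 3.34e-06) no longer passed without the shallow libraries (2.92, adjusted p = 0.0661).

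Of 15 matched hormone-list genes 7 passed the filter and all 7 rose. PPY, GAL and CARTPT, at 0 in some pancreas libraries, passed through their islet level alone, so this count is not set against the share of all genes. Beside INS, GCG, SST and PPY these were transthyretin (TTR), a carrier of thyroid hormone, at 4.88, the neuropeptide galanin (GAL) at 4.85 and CARTPT, which encodes a neuropeptide, at 1.44. Without replicate 9, TTR was at 6.63 and GAL at 6.32. The list median was 4.85, and 3.25 without the shallow libraries, when 4 of 8 rose. GAL was the least uniform, with 38.5 to 1256 CPM in islets against 0 to 40.8 CPM in pancreas, so that the groups overlapped, and it lost its call without the shallow libraries (adjusted p = 0.0827). CARTPT, at 3.91 to 29.8 CPM in islets and 0 to 7.55 CPM in pancreas, was borderline (adjusted p = 0.0456) and failed in the blocked fit of 6 animals (adjusted p = 0.0591) and when any 1 of 8 libraries was left out (islet replicates 2 to 5 and pancreas replicates 2, 5, 8 and 9). The 8 untested genes (GHRL, ADM, NPY, CCK, GAST, VIP, PTH2, PDYN) stayed at or under 6.61 CPM in every islet library.

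Genes of the secretory granule and of prohormone processing rose as a group. All 15 tested were higher in Low islets, with and without the shallow libraries (median log2 fold change 4.36 and 2.996). Of all genes 30.4% were higher, and 23.3% without the shallow libraries. These 15 are all the matched genes of the list, so the filter left no member out. Chromogranin B (CHGB), a granule core protein, lay at 932 to 4078 CPM in islets and 3.64 to 338 CPM in pancreas, with the highest log2 fold change of any gene with a symbol, 5.31 (SE 0.666, adjusted p = 1.97e-07). Chromogranin A (CHGA) lay at 8741 to 12952 CPM in islets and 48.5 to 2263 CPM in pancreas (log2 fold change 4.84). The convertase PCSK2, which cuts proglucagon and proinsulin, lay at 3487 to 4873 and 7.28 to 889 CPM (log2 fold change 4.79). In all 3 the highest pancreas value was replicate 9, and leaving it out gave 6.96, 6.60 and 6.67. They were at 3.86, 3.13 and 3.13 when the shallow libraries were left out.

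SCG2, CPE and SCG5 followed the same pattern, with log2 fold changes of 4.68, 4.67 and 4.62. SCG2 is a granin, CPE the carboxypeptidase that trims cut prohormones, and SCG5 a chaperone of PCSK2. The secreted chaperone clusterin (CLU) rose by 4.65, from 6.96 to 863 CPM in pancreas to 2790 to 4760 CPM in islets. Without replicate 9 these 4 values became 7.22, 7.02, 6.44 and 6.34.

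Beta cell genes rose in 10 of 12 tested and fell in 1 (median 2.32, and 2.21 without the shallow libraries). G6PC2, SLC30A8 and NPTX2, at 0 in at least 1 pancreas library, passed the filter through their islet level alone. These list counts are therefore not set against the share of all genes. G6PC2, the islet glucose-6-phosphatase, lay at 169 to 299 CPM in islets and 0 to 58.9 CPM in pancreas (a log2 rise of 3.70, SE 0.494, adjusted p = 5.17e-07). SLC30A8, which loads zinc into insulin granules, rose by 3.61, ABCC8, the sulfonylurea receptor subunit of the KATP channel, by 3.42 and the pentraxin NPTX2 by 3.24. None of these 4 overlapped between the tissues, as was so for 27.2% of all genes tested. G6PC2 was at 2.77, SLC30A8 at 3.13, ABCC8 at 3.07 and NPTX2 at 3.02 without the shallow libraries. Without pancreas replicate 9, G6PC2 was at 5.68, SLC30A8 at 4.33 and NPTX2 at 4.06. The incretin receptor GLP1R was the exception, at 5.89 to 14.7 CPM in islets, 1.87 to 30.9 CPM in shallow and 4.92 and 7.96 CPM in deep pancreas. Its log2 fold change of -0.98 (adjusted p = 0.0318) turned to 0.55 (adjusted p = 0.253) without the shallow libraries, and the call was also lost without pancreas replicate 1, 3, 4, 5, 6 or 8 alone.

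The lists of alpha and of delta and PP cell genes other than their hormones did not move as one. Of 8 alpha cell genes tested 3 rose and 1 fell, and of 8 delta and PP genes 4 rose and 4 fell. AQP3, at 0.208 to 2.30 CPM in islets, passed the filter through its pancreas level alone. These counts are therefore not set against the share of all genes. When the shallow libraries were left out, 5 of 11 alpha cell genes rose and 3 fell, and 4 of 10 delta and PP genes rose and 3 fell. SLC7A2, a carrier of basic amino acids, rose by 3.18, from 3.64 to 128 CPM in pancreas to 325 to 558 CPM in islets. The netrin receptor UNC5B rose by 2.57. PLCE1 fell by 2.26 and the water and glycerol channel AQP3 by 4.19, the latter from 3.73 to 32.8 CPM in pancreas to 0.208 to 2.30 CPM in islets.

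Islet transcription factors rose in 12 of 13 tested and fell in none (median 1.80, and 1.996 without the shallow libraries). PAX6, which maintains endocrine cells, lay at 384 to 538 CPM in islets and 1.87 to 97.1 CPM in pancreas (a log2 rise of 3.79, SE 0.398, adjusted p = 1.06e-08). RFX6, needed for endocrine differentiation, rose by 3.75. The exocytosis machinery rose in 12 of 17 and fell in 1 (median 2.13, and 14 rose without the shallow libraries). RAB3C, a small GTPase of secretory vesicles, rose by 3.97 and the synaptotagmin SYT4 by 3.77. DOC2B, a calcium sensor for fusion, was the member that fell, by 1.17 (adjusted p = 0.0345), with 1.41 to 10.5 CPM in islets, and it was at 0.40 (adjusted p = 0.599) without the shallow libraries. Leaving out pancreas replicate 1, 4, 5, 6, 7 or 8 alone also ended its call. Among 16 ion channel genes 10 rose and 2 fell, and 12 rose and 1 fell without the shallow libraries. The calcium channel subunit CACNA2D1 rose by 3.63, from 0 to 170 CPM in pancreas to 457 to 693 CPM. The calcium-activated cation channel TRPM4 fell by 5.46 (SE 0.497, adjusted p = 9.79e-10), from 7.61 to 68.8 CPM to 0 to 2.64 CPM, and by 3.64 without the shallow libraries. Without pancreas replicate 9, PAX6 was at 4.73, RFX6 at 4.99, RAB3C at 5.12, SYT4 at 5.79 and CACNA2D1 at 4.54. RFX6, SYT4 and CACNA2D1, at 0 in at least 1 pancreas library, passed the filter through their islet level alone. TRPM4, at 0 in 2 islet libraries, passed through its pancreas level alone. The list counts of this paragraph are therefore not set against the share of all genes.

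**Figure D2:**
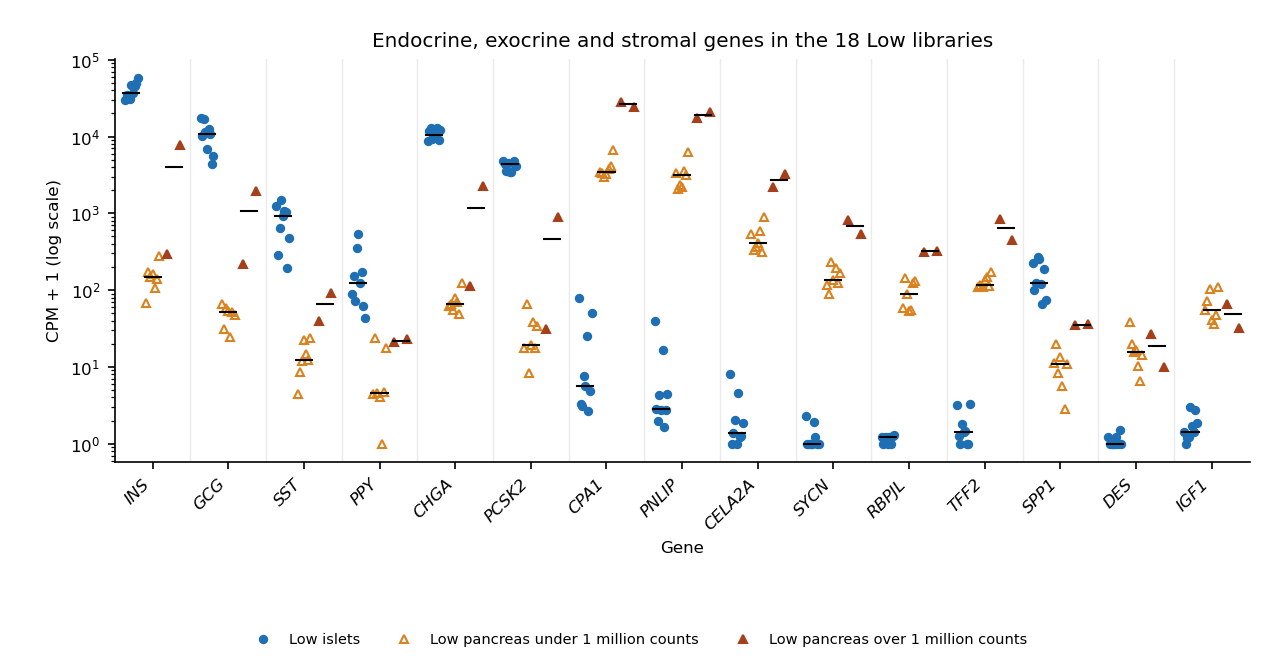
CPM + 1 on a log axis for 15 genes in the 18 Low libraries, 1 point per library, with black bars at group medians. INS reaches 7803 CPM in 1 deep pancreas library, below the lowest islet value of 29478.5 CPM, and the enzyme genes CPA1 and PNLIP lie at 24473 to 28517 CPM and 17695 to 20583 CPM in the deep libraries, above the shallow ones.

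Digestive enzymes were the mirror image. The 5 proteases of 8 matched that passed the filter fell in Low islets, as did all 8 matched lipases and other enzymes, and without the shallow libraries all 6 and 8 tested fell. Members such as KLK1, CELA2A, RNASE1 and PNLIPRP2, at 0 in several islet libraries, passed through their pancreas level alone, so these counts are not set against the share of all genes. Carboxypeptidase A1 (CPA1) lay at 2939 to 6706 CPM in shallow and 24473 and 28517 CPM in deep pancreas, and at 1.68 to 78.5 CPM in Low islets (median 4.63). Its log2 fold change was -9.35 (SE 0.976, adjusted p = 9.68e-09). The highest islet value came from replicate 1, and without it the difference was -10.02. It was -10.64 without the shallow libraries.

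Carboxypeptidase B1 (CPB1) lay at 1421 to 3004, 12034 and 20459, and 0.209 to 33.0 CPM in the same 3 sets of libraries (log2 fold change -10.24, SE 1.03). The trypsin gene PRSS2 had a log2 fold change of -10.06, the elastase CELA2A of -9.78 and tissue kallikrein KLK1 of -9.41. Islet replicate 1 again held the highest islet value, and without it CPB1 was at -11.44, PRSS2 at -10.72 and CELA2A at -10.64. Without pancreas replicate 2, CPB1 was at -9.56 and PRSS2 at -9.34. Trypsins and elastases are families of near-identical genes, so their counts may be shared among copies. TMPRSS15 and CTRL were not tested, and CTRL held no count in any of the 18 libraries.

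Pancreatic lipase (PNLIP) lay at 2064 to 6224 CPM in shallow pancreas, 17695 and 20583 CPM in deep pancreas and 0.628 to 38.6 CPM in Low islets. Its log2 fold change was -10.28 (SE 0.97, adjusted p = 1.80e-09), and -11.25 without islet replicate 1. The lipase-related PNLIPRP1 and PNLIPRP2 were at -10.19 and -9.37, and colipase (CLPS), the cofactor of PNLIP, at -9.78. Bile salt lipase (CEL) was at -8.90, phospholipase PLA2G1B at -10.25 and the ribonuclease RNASE1 at -9.85. Without islet replicate 1, PNLIPRP1 was at -11.39, CLPS at -10.41 and PLA2G1B at -11.15. CEL moved with islet replicate 9 (-10.12 without it) and PNLIPRP2 with pancreas replicate 2 (-8.77 without it). DNASE1 fell least of the 8, by 7.00 (SE 0.508), from 553 to 5193 CPM in pancreas to 16.1 to 36.2 CPM in islets.

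All 13 tested acinar secretory helpers fell (median -7.04, and -8.57 without the shallow libraries). Members such as PDIA2, SYCN, RBPJL and SERPINI2, at 0 in several islet libraries, passed the filter through their pancreas level alone. This count is therefore not set against the share of all genes. PDIA2, a disulfide isomerase of acinar cells, had the largest fall of any gene with a symbol, -10.83 (SE 0.532, adjusted p = 1.67e-14), from 172 to 791 CPM in pancreas to 0 to 0.943 CPM. Syncollin (SYCN), a zymogen granule protein, fell by 10.24, and RBPJL, a subunit of the acinar transcription factor complex, was at -10.05. The serpin SERPINI2 was at -9.98 and the granule membrane glycoprotein GP2 at -8.94. Without islet replicate 1, SYCN was at -10.96 and SERPINI2 at -10.80, and without pancreas replicate 2 SERPINI2 was at -9.32. In all 9 islet libraries together PDIA2 gave 10 counts, SYCN 11, RBPJL 6 and SERPINI2 14, and among genes named elsewhere KLK1 gave 8, RNASE1 19, PNLIPRP2 23, TFF2 27, DES 4, MARCO 8, IGF1 28 and LPL 33. The fitted folds of these genes depend on the fit's prior count, and their size is uncertain beyond the SE. The glycosyltransferase GALNT6 fell by 9.95, from 2278 to 19210 CPM in pancreas to 2.72 to 26.6 CPM. It adjoins the elastase gene CELA1 in RefSeq's gene table, and reads of the pair may not be told apart.

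Duct cell genes fell in 9 of 13 tested and rose in 3 (median -1.62, and -2.12 without the shallow libraries). The trefoil peptide TFF2 fell by 8.92 (SE 0.618, adjusted p = 7.25e-12), from 108 to 851 CPM to 0 to 2.30 CPM. TFF2 was at 0 in 3 islet libraries and passed the filter through its pancreas level alone. The list counts are therefore not set against the share of all genes. The bicarbonate transporter SLC4A4 fell by 5.75, from 240 to 2004 CPM to 7.72 to 33.3 CPM, and the chloride channel CFTR by 3.19, with overlapping ranges. Osteopontin (SPP1) went the other way, at 64.1 to 269 CPM in islets and 1.87 to 35.0 CPM in pancreas (log2 fold change 2.68, adjusted p = 5.89e-07).

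Genes of supporting cells differed by type. None of 12 tested smooth muscle and pericyte genes rose and 11 fell (median -2.60), 0 and 12 of 14 without the shallow libraries. DES, LMOD1 and ACTG2, with at most 5 counts in any islet library, passed the filter through their pancreas level alone. These counts are therefore not set against the share of all genes. The list summed to 75.3 to 124 CPM in Low islets, 144 to 393 CPM in shallow and 375 and 517 CPM in deep pancreas. Desmin (DES), the muscle intermediate filament, was at 0 in 6 of 9 islet libraries and at 5.60 to 37.1 CPM in pancreas, a fall of 7.34 (SE 0.517). The smooth muscle myosin MYH11 fell by 3.28, from 20.9 to 173 CPM to 1.44 to 20.7 CPM. Neither gene overlapped between the groups.

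Fibroblast and stellate genes were mixed, with 5 higher and 4 lower of 14. PDGFRA, at 1.15 to 4.07 CPM in islets, passed the filter through its pancreas level alone. The list counts are therefore not set against the share of all genes. Leaving out the shallow libraries gave 4 higher and 7 lower of 19. SPARC, a matrix glycoprotein, rose by 2.11, from 1.87 to 50.9 CPM to 52.3 to 154 CPM. The growth factor receptor PDGFRA fell by 4.23, from 7.28 to 59.0 CPM to 1.15 to 4.07 CPM, and by 3.89 without the shallow libraries. Fibronectin (FN1) rose by 1.59 (adjusted p = 0.000139) but did not pass without the shallow libraries (1.51, adjusted p = 0.0611).

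Of 14 endothelial genes 1 rose and 6 fell, and without the shallow libraries 0 of 17 rose and 9 fell. The endothelial markers PECAM1, CDH5 and KDR did not pass (-0.19, -0.41 and 0.60). The transcription factor ERG fell by 2.56, from 7.46 to 30.2 CPM to 1.80 to 4.99 CPM. ERG passed the filter through its pancreas level alone, so the list counts are not set against the share of all genes. PROX1, of lymphatic endothelium and also of pancreatic epithelium, was the 1 that rose, by 0.73 (adjusted p = 0.0436), and it was at -0.10 (adjusted p = 0.654) without the shallow libraries. Its call was also lost without islet replicate 1, 2, 3, 4, 5, 6 or 7 or pancreas replicate 3, 5, 6 or 8. PLVAP, of fenestrated capillaries, was at 42.5 to 103 CPM in islets and 15.1 to 200 CPM in pancreas (log2 fold change -0.18, adjusted p = 0.626).

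Myeloid genes fell in 5 of 8 tested and rose in none, and without the shallow libraries 8 of 15 fell and 0 rose. MARCO, at 0 in 5 islet libraries, and CSF1R, at 1.25 to 2.83 CPM in islets, passed the filter through their pancreas level alone. These counts are therefore not set against the share of all genes. The scavenger receptor MARCO fell by 6.47, from 4.47 to 30.2 CPM to 0 to 0.707 CPM, the integrin ITGAM by 4.41 and the leukocyte phosphatase PTPRC by 2.50. Without the shallow libraries they fell by 4.61, 2.08 and 1.98. No lymphocyte, plasma cell, erythroid or platelet gene passed the filter with all 18 libraries. Without the shallow ones 2 lymphocyte and plasma cell genes were tested, of which 1 fell, and 1 erythroid and platelet gene, which fell. The 14 matched lymphocyte and plasma cell genes summed to 6.65 to 13.5 CPM in islets, 67.2 to 226 CPM in shallow and 27.1 and 37.1 CPM in deep pancreas, where most shallow values stand for 0 to 3 counts a gene. Of 2 tested adipocyte-list genes 1 fell, lipoprotein lipase (LPL), by 6.18, from 10.1 to 109 CPM to 0.416 to 2.86 CPM. Schwann and neural genes were divided, with 4 higher and 3 lower of 9. GFAP, with 2 to 34 counts in an islet library, passed the filter through its pancreas level alone. These 2 numbers are therefore not set against the share of all genes. Without the shallow libraries 5 were higher and 1 lower of 10.

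**Figure D3:**
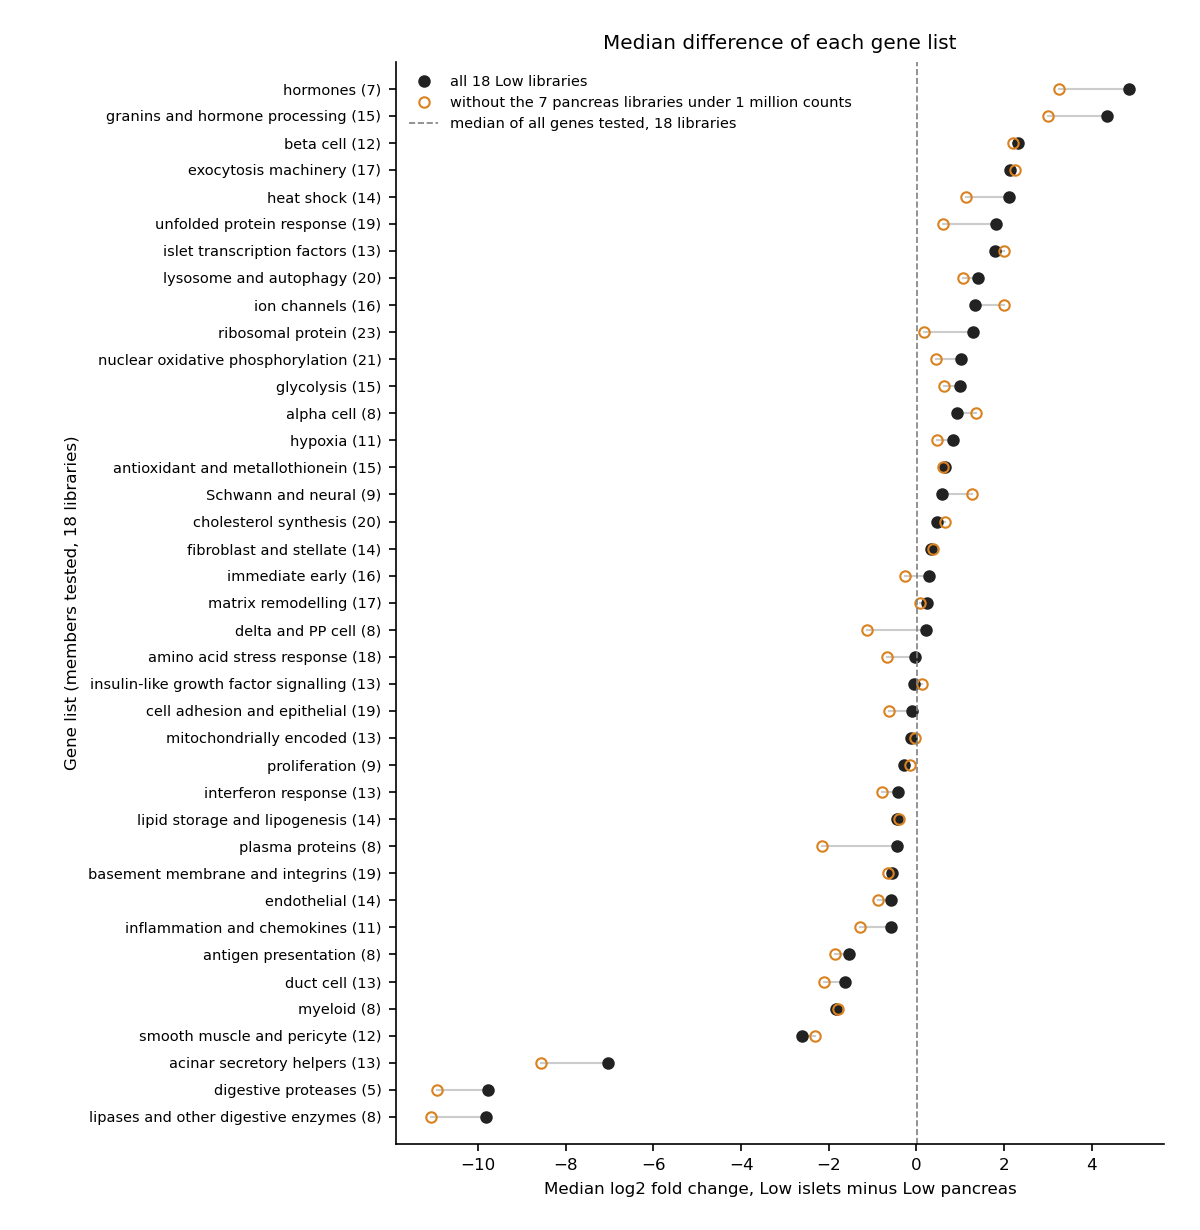
Median log2 fold change of each list with at least 5 tested genes, Low islets minus Low pancreas, for all 18 libraries (filled) and without the 7 shallow pancreas libraries (open). Hormones (4.85) and digestive enzymes (-9.81) stand at the ends with both sets, whereas the unfolded protein response moved from 1.82 to 0.61 and ribosomal proteins from 1.29 to 0.18.

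Chaperones of the endoplasmic reticulum were higher in Low islets. Of 19 unfolded protein response genes tested 15 rose and 2 fell (median 1.82), against 30.4% and 30.9% of all genes. HSPA5, the main chaperone of the endoplasmic reticulum, lay at 1139 to 1830 CPM in islets, 18.2 to 72.1 CPM in shallow and 220 and 580 CPM in deep pancreas (a log2 rise of 3.20, SE 0.476, adjusted p = 2.62e-06). The disulfide isomerase PDIA3 rose by 3.24, from 6.96 to 309 CPM to 703 to 964 CPM. ERN1, the stress sensor IRE1, was 1 of the 2 that fell, by 2.22. Without the shallow libraries 10 rose and 5 fell (median 0.61), against 23.3% and 26% of all genes. HSPA5 was then at 1.77, PDIA3 at 1.72 and ERN1 at -0.95. Without pancreas replicate 9, HSPA5 was at 3.95 and PDIA3 at 3.997. The summed level was 7856 to 9216 CPM in Low islets, 566 to 1052 CPM in shallow, 3470 and 4847 CPM in deep and 2789 to 5143 CPM in High pancreas.

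Heat shock genes rose in 10 of 14 and fell in 1 (median 2.12, and 7 rose with a median of 1.13 without the shallow libraries). Of all genes 30.4% rose and 30.9% fell, and 23.3% rose without the shallow libraries. The constitutive chaperone HSPA8 rose by 2.66. Its co-chaperones varied widely among islets. HSPH1 lay at 74.9 to 791 CPM and DNAJB1 at 22.9 to 581 CPM, both among the 5 most variable islet genes with a mean of at least 100 CPM. Their log2 fold changes of 3.63 and 2.87 did not pass without the shallow libraries (adjusted p = 0.134 and 0.291). Without pancreas replicate 9, HSPH1 was at 4.48 and HSPA8 at 3.31, and without islet replicate 5 DNAJB1 was at 2.27. BAG3, a co-chaperone of autophagy, was lower by 1.02 (adjusted p = 0.00973), a call lost in the blocked fit of 6 animals (-0.80, adjusted p = 0.0890), without the shallow libraries (-0.91, adjusted p = 0.144) and without pancreas replicate 7 (-0.75, adjusted p = 0.0506).

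Ribosomal protein genes rose in 18 of 23 tested and fell in 1 (median 1.29), but in 4 and 4 without the shallow libraries (median 0.18). The shares of all genes that rose and fell were 30.4% and 30.9%, and 23.3% and 26% without the shallow libraries. Their summed level was 5556 to 8707 CPM in Low islets, 534 to 979 CPM in shallow and 4874 and 6104 CPM in deep pancreas, and 5080 to 8917 CPM in High pancreas. Shallow libraries thus lay under all others, and deep Low pancreas overlapped Low islets. RPL5 had 764 to 1197 CPM in islets, 13.1 to 65.5 CPM in shallow and 477 and 743 CPM in deep pancreas. Its log2 fold change of 2.06 (adjusted p = 0.000935) fell short of the threshold without the shallow libraries (0.48, adjusted p = 0.0685). RPL14 was at 2.31 and 1.11. Without pancreas replicate 9, RPL5 was at 2.68 and RPL14 at 3.08. RPS2, the 1 that fell, was at -1.29 with 9.63 to 15.2 CPM in islets, and at -0.30 (adjusted p = 0.599) in the blocked fit of 6 animals. Many processed copies of ribosomal protein genes exist, and their counts are uncertain.

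Nuclear genes of oxidative phosphorylation rose in 12 of 21 and fell in none (median 1.03, and 8 rose with a median of 0.46 without the shallow libraries). The share of all genes that rose was 30.4%, and 23.3% without the shallow libraries. COX7A2, a subunit of cytochrome oxidase, rose by 2.13 and ATP5F1A, a subunit of ATP synthase, by 1.99. COX7A2 was at 2.87 without pancreas replicate 9. Of 13 mitochondrially encoded genes 0 rose and 4 fell, a share of falls near the 30.9% of all genes. Without the shallow libraries 2 rose and 2 fell, against 23.3% and 26% of all genes. COX1 had higher CPM in every islet library (11925 to 16717) than in any pancreas library (3593 to 10173), but its log2 fold change after scaling was 0.48 (adjusted p = 0.298). COX1 passed in the blocked fit of 6 animals (0.73, adjusted p = 0.0151), without the shallow libraries (0.61, adjusted p = 0.0406), without the deep ones (0.74, adjusted p = 0.00304) and without pancreas replicate 9 (0.63, adjusted p = 0.0357), and was at -0.70 (adjusted p = 0.144) with counts thinned to the shallowest library. ND6 fell by 1.68 and was at -0.36 (adjusted p = 0.224) without the shallow libraries.

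**Figure D4:**
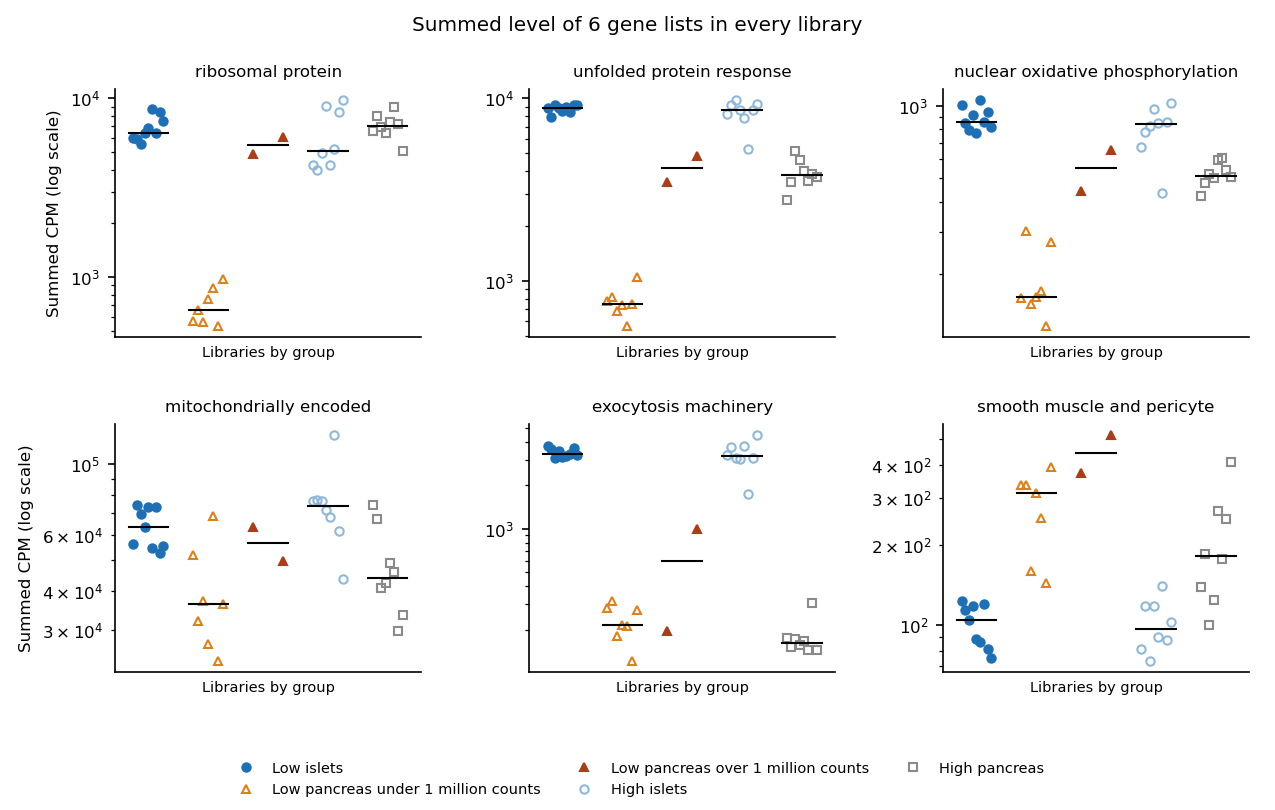
Summed CPM of 6 gene lists on a log axis in all libraries of the 4 groups, with Low pancreas split at 1000000 counts and black bars at medians. The 7 shallow pancreas libraries lie at 534 to 979 CPM for ribosomal proteins, below every other library, and lie below every other library for the unfolded protein response and oxidative phosphorylation too.

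Metabolic lists held large differences in both directions. ACLY, which makes cytosolic acetyl-CoA for fat and sterol synthesis, lay at 1539 to 2243 CPM in islets and 20.9 to 423 CPM in pancreas (a log2 rise of 3.92, SE 0.44, adjusted p = 3.2e-08, and 4.75 without pancreas replicate 9). Of 20 cholesterol synthesis genes 9 rose and 6 fell, but 9 rose and 1 fell without the shallow libraries. The list counts of this paragraph, other than that of insulin-like growth factor signalling, stand beside 30.4% higher and 30.9% lower among all genes. That list is left out because IGF1 passed the filter through its pancreas level alone. The plasma glutathione peroxidase GPX3 rose by 3.94, from 0 to 59.4 CPM to 175 to 372 CPM, and by 6.05 without replicate 9. TXNIP, an inhibitor of thioredoxin, fell by 3.68, from 29.1 to 470 CPM to 13.4 to 28.5 CPM. Apolipoprotein B (APOB) fell by 6.15, from 9.33 to 151 CPM to 0 to 1.96 CPM. Insulin-like growth factor 1 (IGF1) fell by 6.94 (SE 0.412, adjusted p = 3.31e-13), from 31.3 to 108 CPM to 0 to 1.98 CPM, within a list of 13 of which 3 rose and 5 fell (5 and 5 of 14 without the shallow libraries). Glycolysis genes rose in 9 of 15 and fell in 3, and in 8 and 2 of 17 without the shallow libraries. Hypoxia genes rose in 6 of 11 and fell in 1, but in 3 and 2 of 15 without the shallow libraries, when 23.3% of all genes rose.

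Lysosome genes rose in 12 of 20 and fell in 2 (median 1.40, and 13 rose without the shallow libraries). Beside this, 30.4% of all genes rose and 30.9% fell, and 23.3% rose without the shallow libraries. Prosaposin (PSAP), the precursor of sphingolipid activators, rose by 3.13, from 16.8 to 166 CPM to 409 to 776 CPM. Cathepsin L (CTSL) fell by 2.71 and was at -1.15 (adjusted p = 0.138) without the shallow libraries.

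Antigen presentation genes fell in 6 of 8 tested and rose in 1 (median -1.53, and 9 of 12 fell without the shallow libraries). NLRC5, the activator of class I genes, fell by 3.83, from 12.1 to 65.5 CPM to 2.30 to 6.43 CPM. The class II invariant chain CD74 fell by 2.50, with ranges that overlapped. Tapasin (TAPBP), of the peptide loading complex, rose by 1.27, and was at 0.43 (adjusted p = 0.232) with counts thinned to the shallowest library. Among 11 inflammation and chemokine genes 1 rose and 5 fell, and 1 and 10 of 16 without the shallow libraries. NLRC5, and among inflammation genes CFB, with 10 to 30 counts in an islet library, passed the filter through their pancreas level alone. The list counts of this paragraph are therefore not set against the share of all genes.

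Epithelial adhesion genes rose in 6 of 19 and fell in 8. Without the shallow libraries 4 rose and 10 fell of 20. EPCAM rose by 2.56, from 9.26 to 151 CPM to 263 to 444 CPM. The epithelial transcription factor GRHL2 fell by 4.97 and the receptor ERBB2 by 4.90 (SE 0.223, adjusted p = 7.83e-15). ERBB2 was at 22.6 to 54.6 CPM in pancreas and 1.16 to 2.36 CPM in islets, with shallow and deep libraries alike. Immediate early genes rose in 3 of 16 and fell in 4, and in 0 and 4 of 18 without the shallow libraries. MYC fell by 4.39, from 11.6 to 106 CPM to 1.29 to 6.39 CPM. Like ERBB2, MYC passed the filter through its pancreas level alone. The list counts of this paragraph are therefore not set against the share of all genes. FOS and EGR1 lay at 14.1 to 495 and 30.5 to 510 CPM in islets, wide ranges that overlapped pancreas. Their log2 fold changes of 2.18 and 1.48 did not pass without the shallow libraries (adjusted p = 0.217 and 0.605), and EGR1 lost its call without islet replicate 5 (adjusted p = 0.0606) or 6 (adjusted p = 0.0550).

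Among pancreas libraries, the most variable genes with a mean of at least 100 CPM were ALB, CRYZ, OGT, SCG2 and SLC16A12. CRYZ, a quinone reductase, lay at 6.75 to 44.1 CPM in shallow and at 497 and 693 CPM in deep pancreas, against 38.7 to 58.4 CPM in islets. OGT, which adds N-acetylglucosamine to proteins, lay at 4.64 to 50.4, at 552 and 702, and at 255 to 341 CPM in the same order. The transporter SLC16A12 lay at 4.64 to 40.5, at 195 and 584, and at 60.6 to 132 CPM. Islets lay between shallow and deep pancreas for OGT and SLC16A12, so the direction depended on which pancreas libraries were used. OGT was at 0.41 (adjusted p = 0.534) with all 18 libraries, -1.27 (adjusted p = 3.80e-06) without the shallow and 2.69 (adjusted p = 1.03e-12) without the deep ones. SLC16A12 was at -0.70, -2.30 and 1.61. CRYZ fell by 2.10 with all libraries and by 3.81 without the shallow ones, and was at 0.55 (adjusted p = 0.0631) without the deep ones. In the blocked fit of 6 animals OGT was at 2.37 (adjusted p = 4.00e-11). Without pancreas replicate 2 alone, OGT was at 1.16 (adjusted p = 0.0335), SLC16A12 at 0.46 and CRYZ at -1.30. Albumin (ALB) reached 823 CPM in 1 pancreas library, had a median of 10.9 CPM and was not tested.

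Whether the tissue difference was particular to Low samples was tested as the difference between the islet-minus-pancreas difference in Low and in High libraries. It passed for 5718 of 14337 genes (39.9%), 2535 higher (17.7%) and 3183 lower (22.2%). Without the 7 shallow libraries it passed for 61 of 15210 (0.401%), 9 higher and 52 lower, of which 55 were among the 5718, all with the same sign. Every library under 1000000 counts is Low pancreas, so depth and the label cannot be told apart in this test.

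The 5 highest values among genes with a symbol that passed all belonged to enzyme genes or, for GALNT6, the neighbour of one. CELA2A was at 4.43 (SE 0.946, adjusted p = 0.000611), CPB1 at 3.86, PNLIP at 3.56, GALNT6 at 3.16 and PNLIPRP1 at 3.11. With the animal as a block PNLIPRP1 was at 1.502 (adjusted p = 0.328). None of these genes exceeded 38.6 CPM in any islet library of either label. CELA2A had 317 to 907 CPM in shallow Low, 2209 and 3270 CPM in deep Low and 3677 to 13365 CPM in High pancreas. Of 8 lipase-list genes 6 were higher and none lower.

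The 5 lowest values among genes with a symbol were C10orf105 at -7.41, SRRM3 at -6.87, FBN3 at -6.85, ZNF541 at -6.77 and TMC3 at -6.69, all of low count. FBN3, a fibrillin of extracellular microfibrils, had 20.5 to 67.5 CPM in shallow, 4.24 and 4.47 CPM in deep and 0 to 3.23 CPM in High pancreas. By medians, C10orf105, ZNF541 and TMC3 had that same order (18.9, 11.6 and 22.6 CPM in shallow, 3.20, 3.30 and 2.79 CPM in deep and 0 CPM in High pancreas), and SRRM3, a splicing regulator of neural and endocrine cells, was at 3.28 to 10.1 CPM in shallow pancreas and 0 in all 8 High pancreas libraries, so its fitted value is no bound. Without the shallow libraries ZNF541 was not tested, and none of the other 9 passed (adjusted p from 0.0936 for C10orf105 to 0.614 for PNLIPRP1).

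**Figure D5:**
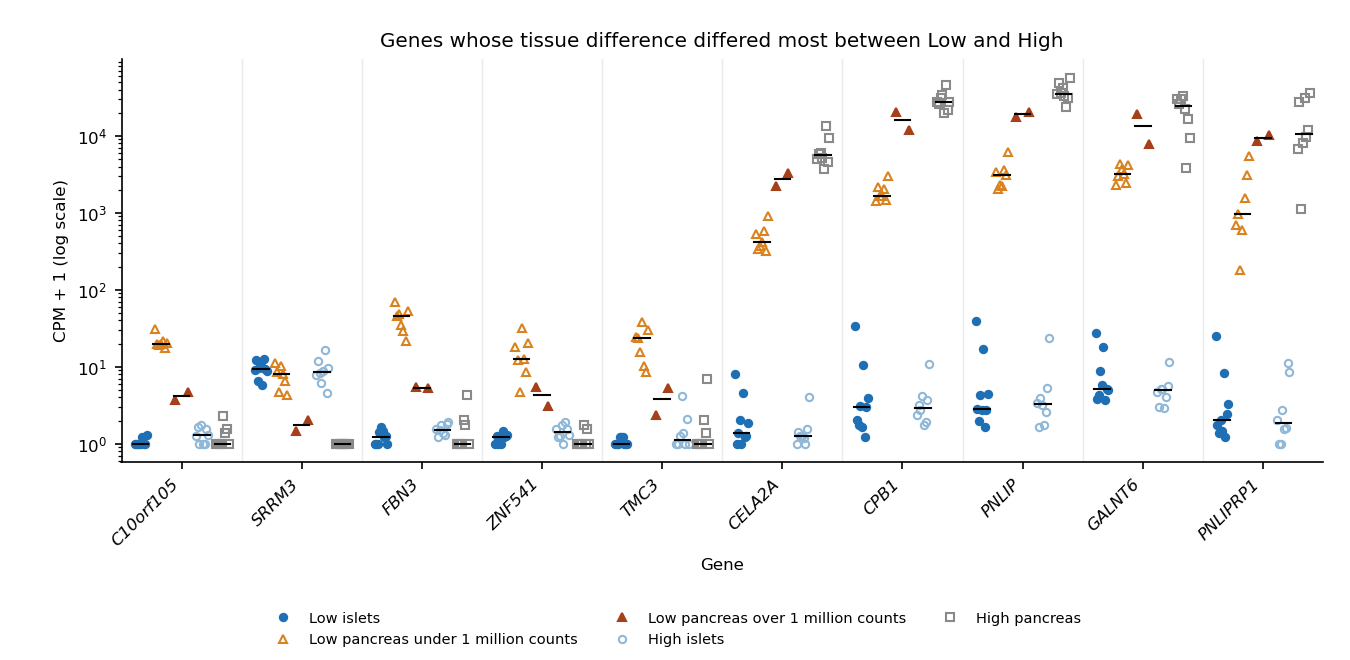
CPM + 1 on a log axis for the 5 genes with the lowest and the 5 with the highest difference between the Low and High tissue differences, 1 point per library, with black bars at medians. The median of deep Low pancreas lies between those of shallow Low and High pancreas, as for CELA2A with 2209 and 3270 CPM against 317 to 907 and 3677 to 13365 CPM.

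By list, all 23 ribosomal protein genes were higher in this test (median 2.15), as were 15 of 19 unfolded protein response genes (1 lower), 14 of 21 oxidative phosphorylation genes (0 lower), 13 of 19 epithelial genes (0 lower) and 9 of 14 heat shock genes (1 lower). Lower were 12 of 16 ion channel genes (1 higher), 11 of 17 exocytosis genes (1 higher), 8 of 15 islet transcription factors (1 higher) and 7 of 14 proliferation genes (1 higher). Among all genes 17.7% were higher and 22.2% lower in this test. Without the shallow libraries no gene of these lists passed except 4 exocytosis genes, all lower, and 4 of 15 granin-list genes were lower too. They were SNAP25 (-2.59), SYT4 (-3.07), SYT13 (-2.91) and CPLX2 (-2.37), and PTPRN (-3.88), SCG3 (-3.62), VGF (-3.41) and PCSK1 (-3.36), named after their values were seen. With the shallow libraries removed, Low pancreas in this test is the 2 deep libraries, of which replicate 9 holds 1.85% endocrine counts.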

How the data were processed

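The authors deposited raw counts, whole numbers of reads for each pig Ensembl identifier in each library. FastQC, HISAT2 (2.0.2), Subread and edgeR appear in the submitters' processing notes together with the build susScr3, without roles or order. Strand, counting options and annotation release were not found in those notes. Of 25880 identifiers, 14857 matched a symbol, and 1 column that matched no sample was not used. RefSeq's gene table served for neighbours only, and no sequences were used.

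Samples were grouped by tissue and density label. The gene lists (42, with 669 of 800 entries matched) and the comparison were chosen with earlier results of these data known. The test across genes was edgeR's (4.0.16, under R 4.3.3, with filterByExpr, TMM, robust quasi-likelihood, two-sided, Benjamini-Hochberg adjusted p of 0.05), and differences above 2-fold with glmTreat. CPM use the plain library total, so CPM and fitted folds can differ in sign. Shares were compared with an exact permutation test (scipy 1.17.1). The test was checked on simulated counts. Alternatives used limma-voom 3.58.1, DESeq2 1.42.0, other scalings and filters, thinned counts, the animal as a block, and libraries left out. Shares of single libraries and the floor of 3 counts cover counting error only.

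Named genes were the 10 highest and 10 lowest log2 fold changes without overlap of CPM and with a mean count of at least 10, the highest CPM of each tissue, the largest changes and highest level in each list, all hormone and enzyme genes, 5 interaction genes in each direction, and the 5 most variable genes of each tissue. All 72 library pairs within a group differed beyond sampling noise (lowest chi-square per degree of freedom 3.18). The animal code in the titles pairs the 2 tissues in 6 animals. The correlation of their expression deviations ran from -0.036 to 0.039 and was highest with the own animal in 2 of 6. Samples of a group come from separate animals by these codes. Some genes that the rule names are not reported here.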

Additional observations from a re-analysis of the deposited data

Results flagged for a closer look

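Some libraries lay far from the others of their group by Dixon's test, applied to 88 group values (2 shares and 42 list levels in each tissue). It marked 9, and chance marks about 1 in 20. Low pancreas replicate 9 was highest in 4 of them. Its endocrine share was 1.852%, its mean log2(CPM + 1) was 7.879 over granin and hormone processing genes, 5.083 over exocytosis genes and 5.604 over plasma protein genes. In other pancreas libraries, replicate 7 was lowest for delta and PP cell genes (1.805) and replicate 3 highest for erythroid and platelet genes (3.647). Among Low islets, replicate 1 had the highest acinar share (0.035%), replicate 8 the lowest level of alpha cell genes (2.777) and replicate 6 the lowest level of ion channel genes (5.737).

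The tissue difference in Low minus that in High libraries passed the test, with all libraries, for the 10 genes named for it. It was -7.408 for C10orf105, -6.866 for SRRM3, -6.855 for FBN3, -6.773 for ZNF541 and -6.69 for TMC3, and 4.425 for CELA2A, 3.861 for CPB1, 3.557 for PNLIP, 3.156 for GALNT6 and 3.105 for PNLIPRP1.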

How the results depend on the processing

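All limits here refer to Low islets against Low pancreas unless High is named. The 7 shallow pancreas libraries bound what could be seen there, since 3 counts are worth 5.60 to 11.3 CPM in them. The endocrine share difference ran from 6.127 to 9.293 points over the alternatives, and from 8.571 to 8.891 when 1 library was left out. The acinar difference was -7.481 without the genes above 5% of a library, -12.95 without the shallow libraries, -2.077 without the deep ones and -2.149 paired over 6 animals, and ran from -4.876 to -3.29 when 1 library was left out.

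Counts of called genes ran from 6980 to 8385 when 1 library was left out, those higher from 3450 to 4195 and those lower from 3530 to 4281. For differences above 2-fold they ran from 3003 to 4528, from 1123 to 1993 higher and from 1880 to 2564 lower, the highest without pancreas replicate 9. Without a low-count filter 15725 of 24336 genes tested were called (6316 higher, 9409 lower) and 11084 passed 2-fold (3254 and 7830). Thinned to the shallowest library, only 3385 genes were tested, against 12035 in the main fit. Of these 3385, 1928 were called (973 and 955) and 623 passed 2-fold (263 and 360). The 2-fold counts were 5062 of 14337 (1845 and 3217) with 34 libraries in 1 fit and 5303 of 15237 (2002 and 3301) with a minimum of 1 CPM in 9 libraries. Without the deep libraries they were 6467 of 13705 (3222 and 3245). With the replicate block by animal, 2310 genes were more than 2-fold higher over 18 libraries and 2378 in the 6 paired animals. Those 6 animals unblocked gave 4818 genes above 2-fold, 2453 of them higher. The cause of these shifts was not tested.

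Between Low and High, 8812 of 24775 genes tested differed without a filter (4264 higher) and 1243 of 4891 when thinned (488 higher, 755 lower). Without the shallow libraries 61 of 15210 differed (9 higher, 52 lower), and with upper-quartile scaling 1670 of 14337 were higher.

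Named genes that passed the test in either fit changed sign as follows. Without the shallow libraries GLP1R was at 0.5466, DOC2B at 0.4009, PROX1 at -0.0953 and OGT at -1.273. Without the deep libraries PLVAP was at 0.5449, CRYZ at 0.5484 and SLC16A12 at 1.613. CRYZ and SLC16A12 were at 0.208 and 1.462 with the replicate block in 6 animals, 0.1101 and 1.445 there unblocked, and 0.1716 and 1.436 with the block over 18 libraries. Signs that turned with no call in either fit were seen, among others, for PLVAP (0.44 without pancreas replicate 9), for COX1 (-0.70) and OGT (-0.35) in thinned counts, and for SLC16A12 (0.46 without pancreas replicate 2). The cause was not tested. Beside these, 21 named values lost and 2 gained a call without the shallow libraries, 3 lost and 2 gained one in the blocked fit of 6 animals (OGT at 2.37 and COX1 at 0.73), and 8 lost and 2 gained one in thinned counts.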
